A study of Homo sapiens with 18 samples.

Results

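CCL2, IL32 and IL2RG are a chemokine, a cytokine and a cytokine receptor chain, and their transcripts were followed across OCI-AML3 and OCI-AML2, human acute myeloid leukaemia cell lines, in parental cells and in knockout clones of CASP2, which encodes caspase-2, an apoptotic protease. The 3 genes were taken by symbol from the 5069 distinct sets of values in the deposited expression table, of which 2320 had a symbol that the structure of the table settled. They were chosen by their TPM changes in OCI-AML2, CCL2 and IL2RG for a strong rise and IL32 for a strong fall in clone 1 and clone 2 alike. The changes from OCI-AML2 parental cells to the clones are therefore given as a description, without a test, and so are the comparisons that share those parental libraries. The OCI-AML3 libraries and the difference between the OCI-AML2 clones were not the contrast that chose the genes and were tested, although the clone libraries of OCI-AML2 are shared with it.

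Gene expression was measured by RNA sequencing of total RNA in 18 libraries, 3 for each of 6 groups. OCI-AML3 carries the cytoplasmic NPM1 mutation (NPM1c+), and its groups were Caspase-2 KO clone 1, Caspase-2 KO clone 2 and the Caspase-2 WT parental cells. OCI-AML2 carries wild-type NPM1 (NPM1WT), with the same 3 kinds of group. Knockouts came from CRISPR/Cas9 editing, all cells were untreated and had spent under 2 weeks in culture, and each knockout group is a single clone, so the libraries of a group are replicates of that clone or of the parental culture. Nothing in the labels says that they came from separate cultures, and p-values then measure only the spread between libraries, which may be technical. Values are TPM, transcript abundances scaled for transcript length and library depth. The table holds part of each library, 170140 to 199403 TPM in sum over the distinct sets, and the read depth is unknown.

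CASP2 itself fell in the OCI-AML2 clones, with 3.50 ± 0.470 TPM in clone 1 and 4.45 ± 1.02 TPM in clone 2 against 36.1 ± 1.07 TPM in parental cells (SD, n = 3 libraries each; limma adjusted p = 1.7e-13 and 4.2e-13). In OCI-AML3 it was 27.1 ± 0.745 TPM in clone 1 and 32.1 ± 2.92 TPM in clone 2 against 28.7 ± 1.19 TPM in parental cells, and neither clone passed the test (limma adjusted p = 0.537 and 0.240; clone 2 passed as higher once libraries were rescaled, adjusted p = 0.0144). An edited gene can still be transcribed, and the mRNA gave no check of the labels of the OCI-AML3 clones. Of 12 markers fixed for myeloid leukaemia cells, 2 had a settled symbol, ANPEP and ITGAM, so the labelled cell type could not be checked well: ANPEP (CD13) was between 27.02 and 70.82 TPM in all OCI-AML3 libraries and under 1 TPM in all OCI-AML2 libraries, and ITGAM (CD11b) was at most 1.55 TPM in every library.

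CCL2, also called MCP-1, is a secreted chemokine that draws monocytes towards its source through the receptor CCR2. IL32 encodes a cytokine found in humans but without a counterpart in rodents, made mainly by T, NK, epithelial and myeloid cells and known for inducing tumour necrosis factor and other cytokines. IL2RG is the common gamma chain, shared by the receptors for IL-2, IL-4, IL-7, IL-9, IL-15 and IL-21; it binds the kinase JAK3, and its inherited loss causes severe combined immunodeficiency. CCL2 and IL32 are known targets of NF-kB signalling in other cells.

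The RefSeq promoter table (GRCh38.p14) held IL32 and IL2RG, 2 of the 3 genes. The 250 bases before the start of each are shown because the genes moved in opposite directions in the OCI-AML2 clones, and capitals mark matches to 6 motifs searched on both strands. Searched were TGACGTCA, bound by CREB factors and called CRE, and TTCNNNGAA, bound by STAT factors. The ETS motif was searched as CCGGAAG. The TATA box was searched as TATAAA, a core promoter element. The AP-1 motif was searched as TGA and TCA around any single base, and the kappaB consensus of NF-kB is given by its name. The IL32 window is chr16:3065153-3065402 on the plus strand and the IL2RG window chrX:71111578-71111827 on the minus strand.
IL32: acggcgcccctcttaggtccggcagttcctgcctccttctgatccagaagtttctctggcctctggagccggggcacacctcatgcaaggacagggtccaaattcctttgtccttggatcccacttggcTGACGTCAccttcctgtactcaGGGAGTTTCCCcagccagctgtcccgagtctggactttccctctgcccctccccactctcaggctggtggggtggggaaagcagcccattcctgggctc
IL2RG: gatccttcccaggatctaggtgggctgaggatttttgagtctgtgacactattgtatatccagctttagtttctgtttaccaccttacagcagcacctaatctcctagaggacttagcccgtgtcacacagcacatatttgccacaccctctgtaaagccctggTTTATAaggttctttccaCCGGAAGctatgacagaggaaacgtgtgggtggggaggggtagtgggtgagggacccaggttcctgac
In the IL32 window a CRE match begins 121 bases before the start and a kappaB match 99 bases before it, which overlaps a second kappaB match on the other strand. In the IL2RG window a TATA match on the other strand begins 86 bases and an ETS match 68 bases before the start. A second IL32 start in the same table, chr16:3065534-3065783 on the plus strand, held none of the 6 motifs. Of 35116 upstream windows of this length, 1.65% held the CRE motif, 6.57% the AP-1 motif, 6.57% the STAT motif, 9.96% the kappaB motif, 10.7% the TATA motif and 8.52% the ETS motif. A match is a description of letters, not of a bound factor.

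In OCI-AML3, CCL2 rose in both clones by nearly the same amount. The libraries of clone 1 held 40.24, 50.22 and 58.75 TPM and those of clone 2 held 48.15, 49.67 and 55.48 TPM, against 16.3, 10.51 and 12.38 TPM in parental cells. Every clone library lay above every parental library, and the clones overlapped each other. The mean was 49.7 ± 9.26 TPM in clone 1 and 51.1 ± 3.87 TPM in clone 2, against 13.1 ± 2.95 TPM in parental cells (SD, n = 3 each), 3.81-fold and 3.91-fold higher. On the log2(TPM + 1) scale the rise was 1.86 in clone 1 and 1.91 in clone 2 (SE 0.15 each, limma adjusted p = 1.9e-09 and 1.3e-09). In bulk RNA, more cells with a transcript and more transcript per cell cannot be told apart.

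IL32 rose in OCI-AML3 as well, at low levels. The libraries of clone 1 held 3.22, 1.85 and 2.44 TPM and those of clone 2 held 3.14, 2.4 and 2.6 TPM, against 0.55, 0.29 and 0.14 TPM in parental cells. The clone libraries were all above the parental ones but stayed under 4 TPM. The log2(TPM + 1) difference was 1.39 in clone 1 and 1.49 in clone 2 (SE 0.16 each, limma adjusted p = 4.6e-07 and 1.9e-07), which understates a change at such low values. The ratio of mean TPM was 7.66 and 8.31 and is loosely set, with SDs of 5.30 and 5.40.

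In the set of values used for IL2RG, the gene was barely detected in OCI-AML3. Another line printed with its symbol, without a settled symbol and not used, had the levels of the cell lines reversed. It averaged 383 to 460 TPM in the OCI-AML3 groups and 11.1 to 18.3 TPM in the OCI-AML2 groups. Its clone means were above the parental mean in each cell line. In the set used, clone 1 libraries held 0.65, 1.97 and 0.41 TPM and clone 2 libraries 1.09, 1.97 and 0.97 TPM, against 0.58, 0.31 and 0.6 TPM in parental cells. The clone 1 libraries overlapped the parental ones, and the clone 2 libraries lay just above them. Clone 2 passed the test (log2 difference 0.63, SE 0.22, limma adjusted p = 0.0146) and clone 1 did not (0.35, 95% interval -0.10 to 0.81, adjusted p = 0.155). The clone 2 call ended without OCI-AML3 parental replicate 2 (adjusted p = 0.0604) or clone 2 replicate 2 (adjusted p = 0.0927), and clone 1 passed without its replicate 3 (adjusted p = 0.0278).

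In all, 2 of the 3 genes passed in OCI-AML3 clone 1, where 72.2% of the 4413 tested sets did, and 3 of 3 in clone 2, where 73.1% did. Counted by direction, 31.3% of all sets were higher in clone 1 and 31.6% in clone 2. With so high a share called over the table, the count is not a result about these genes. The median absolute log2 difference over the 3 genes was 1.39 in clone 1 and 1.49 in clone 2, beside 0.59 for all tested sets in each. Both medians are the IL32 values, and IL2RG in clone 1 was at 0.35, under that of all sets. The genes were chosen for large changes in OCI-AML2, so the larger medians are no finding. Between the OCI-AML3 clones (clone 2 minus clone 1), none of the 3 genes passed with limma, and 0 had an unadjusted p under 0.05, where 6.82% of sets passed. The intervals of that difference were -0.26 to 0.36 for CCL2, -0.25 to 0.44 for IL32 and -0.18 to 0.73 for IL2RG.

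**Figure D1:**
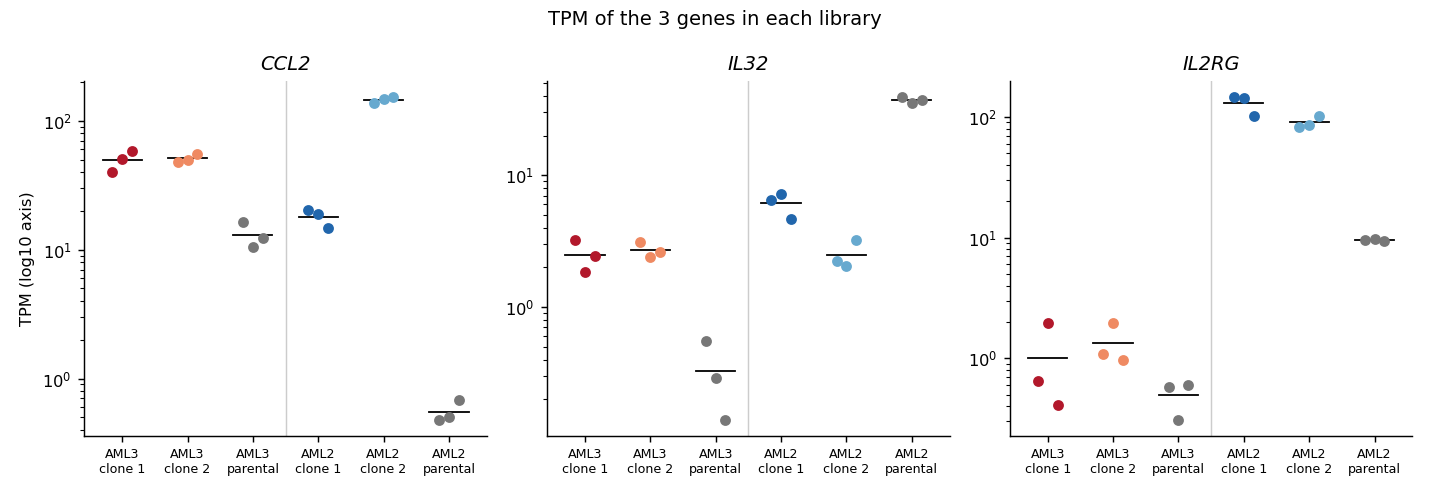
TPM of CCL2, IL32 and IL2RG in each of the 18 libraries, on log10 axes that differ between panels. Points are libraries, horizontal bars are group means (n = 3), and the vertical line separates OCI-AML3 from OCI-AML2. CCL2 is lowest in OCI-AML2 parental cells, IL32 is highest there, and IL2RG stays under 2 TPM in all OCI-AML3 libraries.

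In OCI-AML2, the values that chose the genes were as follows. The CCL2 values were 20.41, 18.95 and 14.75 TPM for clone 1 and 137.15, 147.02 and 152.78 TPM for clone 2, against 0.48, 0.5 and 0.68 TPM in parental cells. This is 32.6-fold the parental mean in clone 1 and 263-fold in clone 2. The parental cells had almost no CCL2 transcript, and the 2 clones did not overlap.

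The IL32 values were 6.52, 7.24 and 4.63 TPM for OCI-AML2 clone 1 and 2.22, 2.05 and 3.21 TPM for clone 2, against 39.1, 35.09 and 37.12 TPM in parental cells. The ratio to the parental mean was 0.165 in clone 1 and 0.0672 in clone 2. The groups did not overlap, and clone 2 was the lowest. The IL2RG values were 145.91, 143.11 and 101.63 TPM for clone 1 and 82.92, 86.53 and 102.52 TPM for clone 2, against 9.55, 9.71 and 9.33 TPM in parental cells. This is 13.7-fold the parental mean in clone 1 and 9.51-fold in clone 2, and here the clones overlapped. The unused line printed as IL2RG rose far less, to 18.3 TPM in clone 1 and 14 TPM in clone 2 against 11.1 TPM in parental cells. Of all sets, 56% passed in clone 1 and 65.7% in clone 2 of this line, figures given only as background to these descriptions.

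Compared directly, the OCI-AML2 clones differed in CCL2 and IL32. The same clone libraries had a part in choosing the 3 genes, so these tests do not stand on independent values. CCL2 was 8.08-fold higher in clone 2 than in clone 1 (log2 difference 2.96, SE 0.15, limma adjusted p = 2.0e-11). IL32 was lower in clone 2, at 2.49 ± 0.626 TPM against 6.13 ± 1.35 TPM in clone 1 (log2 difference -1.03, SE 0.16, limma adjusted p = 3.4e-05). IL2RG averaged 90.7 ± 10.4 TPM in clone 2 and 130 ± 24.8 TPM in clone 1, a log2 difference of -0.50 (95% interval -0.96 to -0.05) that just missed the threshold (adjusted p = 0.0543). It passed in 8 of 26 alternative settings, with adjusted p from 0.00338 to 0.274 over them; single libraries whose absence made it pass were replicate 3 of either OCI-AML2 clone (adjusted p = 0.0218 without that of clone 1 and 0.0484 without that of clone 2), replicates 2 and 3 of OCI-AML3 clone 1 (0.0101 and 0.0349) and replicate 2 of OCI-AML3 clone 2 (0.0425). Without those OCI-AML3 libraries the difference stayed at -0.50, since they do not enter it but do enter the spread pooled over the groups. Thus 2 of the 3 genes passed between the OCI-AML2 clones, 1 higher and 1 lower in clone 2, where 58.9% of all sets did, 29.9% higher and 29% lower.

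The parental lines stood far apart in all 3 genes, given here without a test. CCL2 averaged 13.1 ± 2.95 TPM in OCI-AML3 parental cells and 0.553 ± 0.110 TPM in OCI-AML2 parental cells, 23.6-fold. IL32 averaged 0.327 ± 0.207 TPM in OCI-AML3 parental cells and 37.1 ± 2.01 TPM in OCI-AML2 parental cells. IL2RG averaged 0.497 ± 0.162 TPM in OCI-AML3 parental cells and 9.53 ± 0.191 TPM in OCI-AML2 parental cells. In this comparison 90.6% of all sets passed the limma test, and the OCI-AML2 parental libraries had a part in choosing the 3 genes, so the distance is no trait of these genes.

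Ordered by mean, CCL2 was highest in OCI-AML2 clone 2 (146 TPM), followed by OCI-AML3 clone 2 and clone 1, which overlapped, then OCI-AML2 clone 1 (18.04 TPM) and OCI-AML3 parental cells, which also overlapped, and OCI-AML2 parental cells. IL32 was highest in OCI-AML2 parental cells, followed by OCI-AML2 clone 1 and then by OCI-AML3 clone 2 (2.71 TPM), OCI-AML3 clone 1 (2.50 TPM) and OCI-AML2 clone 2 (2.49 TPM), in which neighbours overlapped. The lowest was OCI-AML3 parental. IL32 group means were 2.49 to 6.13 TPM in the clones of the 2 lines and 0.327 and 37.1 TPM in parental cells. IL32 was chosen for its fall in OCI-AML2, so the narrower range in clones is partly set by that choice and is no finding. IL2RG, in the set of values used, followed the line: all OCI-AML2 groups were above all OCI-AML3 groups. The OCI-AML2 clones overlapped, as did neighbouring OCI-AML3 groups.

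**Figure D2:**
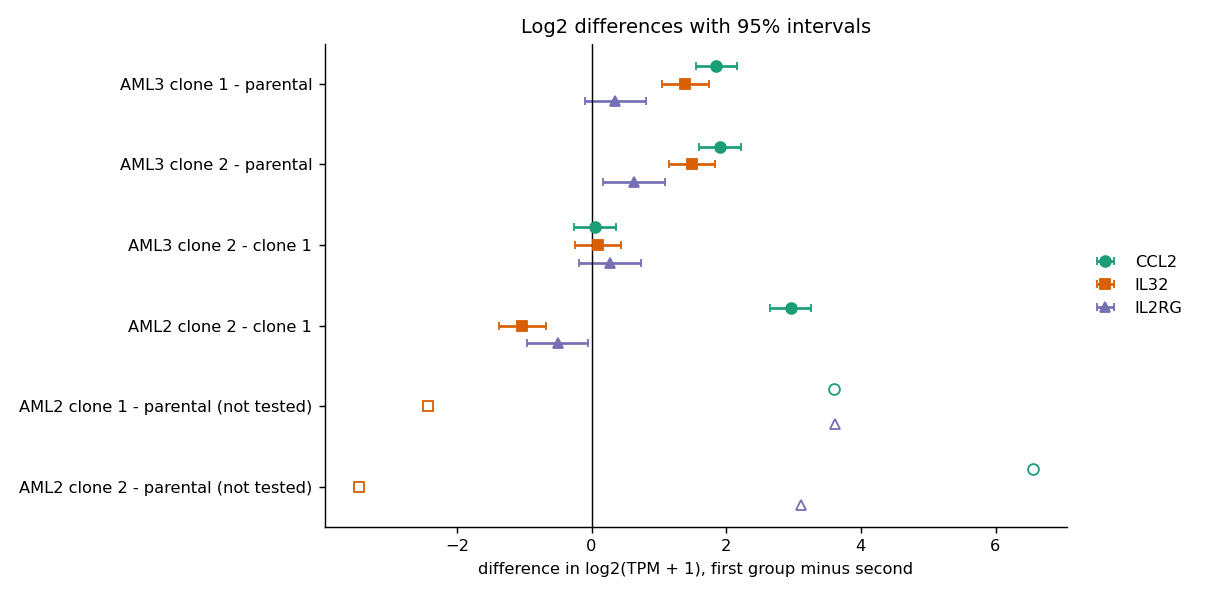
Differences in log2(TPM + 1) for CCL2 (circles), IL32 (squares) and IL2RG (triangles), first group minus second. Filled symbols with bars are estimates with 95% intervals from limma, and open symbols are the OCI-AML2 changes that chose the genes, without interval or test. CCL2 is positive in both lines, whereas IL32 is 1.39 and 1.49 in the OCI-AML3 clones and -2.44 and -3.46 in the OCI-AML2 clones.

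Over the 18 libraries, the Pearson correlation of log2(TPM + 1) was -0.68 between CCL2 and IL32, 0.12 between CCL2 and IL2RG and 0.33 between IL32 and IL2RG. These values describe 6 group means more than 18 points, since libraries of a group share their cells. They include the OCI-AML2 libraries, in which CCL2 and IL2RG were chosen for a rise and IL32 for a fall. Their signs are thus partly set by that choice, and in OCI-AML3 CCL2 and IL32 both rose in the clones. Among 2081 other tested sets with a settled symbol, CCL2 was most like DDB2, a DNA damage recognition gene (r = 0.96), PSMB1, a proteasome subunit (0.93), and MPC1, a mitochondrial pyruvate carrier subunit (0.92). IL32 was most like GLRB, a glycine receptor subunit (0.98), FAM129C (0.96) and the complement gene C2 (0.96). C2 averaged 1.75 ± 0.168 TPM in OCI-AML2 clone 1 and 0.460 ± 0.135 TPM in clone 2 against 9.51 ± 0.328 TPM in parental cells. IL2RG was most like the cytidine deaminase gene APOBEC3B, the glycosyltransferase gene B3GNT7 and the calprotectin subunit gene S100A8 (0.99 each). These likenesses carry no test.

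Partners of the 3 proteins were examined next. CCR2, the receptor of CCL2, rose in both OCI-AML3 clones, to 5.04, 4.14 and 4 TPM in clone 1 and 3.89, 3.75 and 3.41 TPM in clone 2, against 0.2, 0.21 and 0.21 TPM in parental cells. The log2 difference was 2.16 and 1.96 (SE 0.10 each, limma adjusted p = 2.3e-12 and 8.8e-12; 3.87 and 3.62 with a pseudocount of 0.1 TPM), so ligand and receptor transcripts were both higher in these clones. In OCI-AML2 CCR2 was lower in clone 1 (19.96 ± 1.09 TPM) and higher in clone 2 (36.0 ± 6.30 TPM) than in parental cells (28.2 ± 1.79 TPM), with log2 differences of -0.48 and 0.33 (limma adjusted p = 0.000713 and 0.00941). The clone 2 call ended without its replicate 1 (adjusted p = 0.0759).

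JAK3, the kinase bound by the common gamma chain, fell in both OCI-AML3 clones, to 0.04, 0.04 and 0.1 TPM in clone 1 and 0.05, 0.14 and 0.02 TPM in clone 2, against 2.5, 2.48 and 2.32 TPM in parental cells. No clone library came near the parental range (log2 differences -1.70 and -1.68, SE 0.08 each, limma adjusted p = 3.2e-12 and 3.4e-12; -4.01 and -3.96 with a pseudocount of 0.1 TPM). In OCI-AML2, where IL2RG was high, JAK3 averaged 3.003 ± 0.244 TPM in clone 1 and 4.54 ± 0.204 TPM in clone 2 against 3.64 ± 0.548 TPM in parental cells. Its log2 differences there were -0.21 and 0.26 (limma adjusted p = 0.0424 and 0.0106), and both calls ended with a pseudocount of 0.1 TPM (adjusted p = 0.331 and 0.205). The clone 1 call also ended without OCI-AML2 parental replicate 1 or 3 or clone 1 replicate 2 or 3 (adjusted p = 0.0553 to 0.263) and, just so, without OCI-AML3 clone 1 replicate 2 (adjusted p = 0.0504) and with the replicate block (adjusted p = 0.0503); the clone 2 call ended without parental replicate 2 (adjusted p = 0.0708). PRTN3, proteinase 3 of neutrophil granules, which is known to bind and cleave the IL-32 protein, fell in OCI-AML3 to 1611 ± 59.7 TPM in clone 1 and 2193 ± 207 TPM in clone 2 against 7481 ± 853 TPM in parental cells (limma adjusted p = 1.3e-11 and 2.8e-10). In OCI-AML2 it was higher in clone 1 (1666 ± 213 TPM) and lower in clone 2 (799.6 ± 125 TPM) than in parental cells (1110 ± 96.0 TPM; limma adjusted p = 0.000496 and 0.00189).

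**Figure D3:**
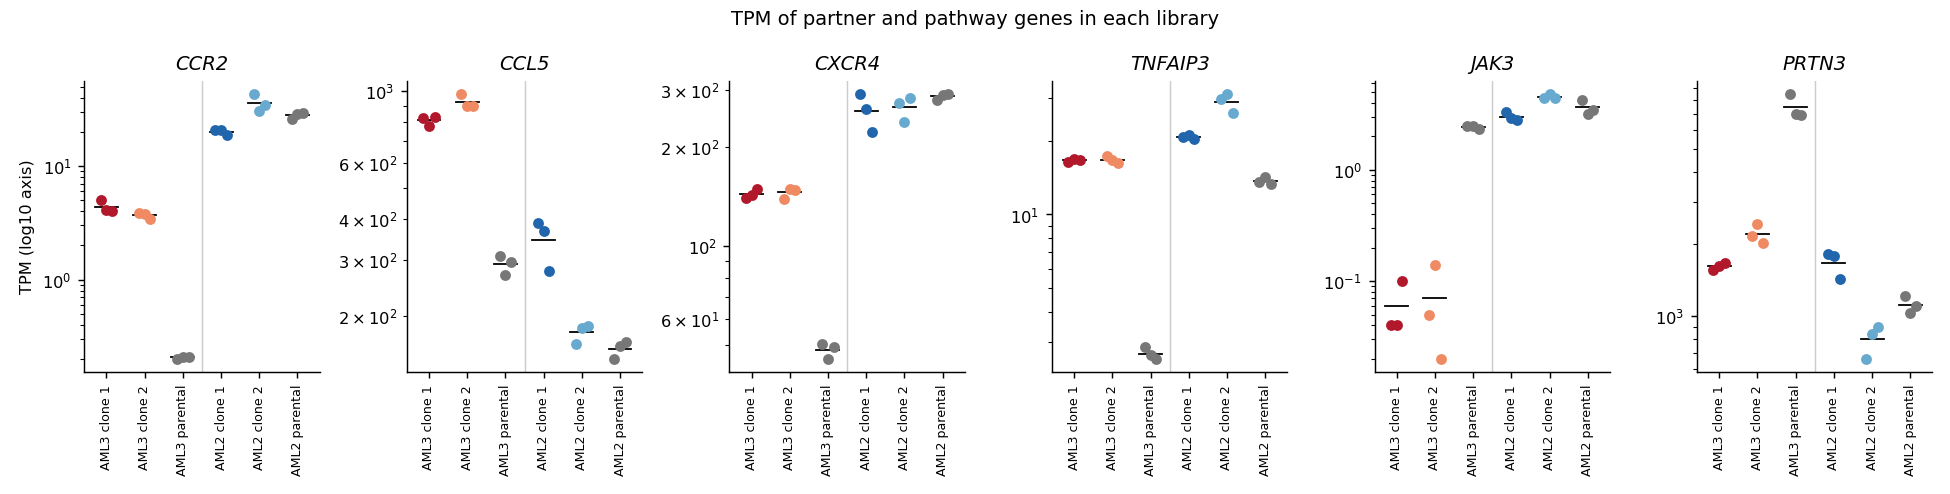
TPM of CCR2, CCL5, CXCR4, TNFAIP3, JAK3 and PRTN3 in each library, on log10 axes that differ between panels, with bars at group means (n = 3) and a line between OCI-AML3 and OCI-AML2. In OCI-AML3 the first 4 genes are higher and JAK3 and PRTN3 lower in all clone libraries than in all parental libraries.

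For the wider pathways, a gene was counted in a line when both clones passed against the parental cells in the same direction. The lists were chosen with earlier results of these data known, so their counts and medians are only a description. Among all 2084 tested sets with a settled symbol, 36.2% were higher and 49.1% lower in OCI-AML3, and 28.5% higher and 17.3% lower in OCI-AML2. Of 67 chemokines and chemokine receptors, 7 besides CCL2 had a settled symbol. In OCI-AML3, 5 of the 7 were higher and 2 lower, with a median log2 change of 1.31 beside -0.06 for all tested sets. CCL5, a chemokine for T cells and monocytes, averaged 814 ± 27.7 TPM in clone 1 and 926 ± 45.7 TPM in clone 2 against 290.6 ± 19.3 TPM in OCI-AML3 parental cells (limma adjusted p = 2.8e-10 and 5.6e-11). CXCR4, the receptor of CXCL12, averaged 144 ± 5.01 and 146 ± 5.40 TPM in these clones against 48.5 ± 2.71 TPM in parental cells. CCL3L1 fell (mean log2 change -1.42), but it shares most of its sequence with CCL3 and CCL3L3, and its reads may have been split among these genes.

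In OCI-AML2, 1 of the 7 was higher (CCL3L1) and 1 lower (ACKR3, a scavenging receptor of CXCL12, mean log2 change -0.63). The CCL3L1 call rests on values of at most 1.52 TPM in the clones against a listing at 0 in the 3 parental libraries, and it ended when any one OCI-AML2 library other than clone 2 replicate 1 was left out (adjusted p = 0.0556 to 0.238). In OCI-AML2 clone 1 CCL5 averaged 345 ± 60.2 TPM against 158 ± 9.64 TPM in parental cells (limma adjusted p = 3.6e-08), while clone 2, the clone with the most CCL2, had 178 ± 12.6 TPM (adjusted p = 0.157; without OCI-AML2 clone 1 replicate 3 it passed, adjusted p = 0.0434). CCL5 was lower in clone 2 than in clone 1 (log2 difference -0.94, limma adjusted p = 3.6e-07), the reverse of CCL2.

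Of 37 genes listed for common gamma chain signalling and related cytokine signalling, 7 besides IL2RG had a settled symbol. Among them, IL13RA1 and OSM are not parts or ligands of the receptors that hold IL2RG, so the counts are of the list. In OCI-AML3, 3 were higher and 4 lower (median -0.70 beside -0.06). SOCS2, a feedback inhibitor of cytokine receptors (mean log2 change -1.76), and JAK3 fell, and PIM1 (1.48) and the receptor chain IL13RA1 (1.38) rose (highest limma adjusted p = 2.5e-08). In OCI-AML2, 2 were higher and 2 lower (median -0.19 beside 0.06). SOCS2 averaged 74.1 ± 2.63 TPM in clone 1 and 71.7 ± 1.28 TPM in clone 2 against 42.6 ± 1.48 TPM in parental cells. PIM1 rose there too (0.72), and the cytokine gene OSM (-0.72) and IL13RA1 (-0.50) fell (highest limma adjusted p = 0.00570).

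Of 69 other cytokines and their receptors, 17 had a settled symbol. In OCI-AML3, 10 were higher and 6 lower (median 0.72). CSF2RB, the common beta chain of the receptors for GM-CSF, IL-3 and IL-5, fell to 2.44 ± 0.0961 TPM in clone 1 and 2.24 ± 0.137 TPM in clone 2 against 19.6 ± 0.747 TPM in parental cells. The growth factor gene TGFA (mean log2 change 2.36) and the receptor genes IL17RC (2.30) and OSMR (2.07) rose. In OCI-AML2, 7 were higher and 5 lower (median 0.00). LTB, lymphotoxin beta, rose to 15.2 ± 1.03 TPM in clone 1 and 24.2 ± 1.54 TPM in clone 2 against 4.07 ± 0.777 TPM in parental cells, and the interleukin-1 receptor gene IL1R1 rose as well (1.35). IL1B, interleukin-1 beta, fell to 8.57 ± 0.469 and 18.5 ± 2.41 TPM against 30.7 ± 0.203 TPM, and TNFSF13B, the B cell factor BAFF, fell too (-1.03; highest limma adjusted p of these 8 genes 0.00404).

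Of 38 NF-kB pathway and feedback genes, 5 had a settled symbol and 4 passed the minimum level. All 4 were higher in OCI-AML3 (median 1.77), among them TNFAIP3, the feedback inhibitor A20, at 16.7 ± 0.217 TPM in clone 1 and 16.7 ± 0.554 TPM in clone 2 against 2.70 ± 0.153 TPM in parental cells. PTGS2, cyclooxygenase 2, averaged 7.53 ± 0.370 and 5.47 ± 0.326 TPM against 0.410 ± 0.104 TPM. The other two were the Toll-like receptor genes TLR4 (mean log2 change 1.29) and TLR2 (1.01). In OCI-AML2, 3 of the 4 were higher and TLR2 was lower (-1.22), with TNFAIP3 at 20.8 ± 0.414 TPM in clone 1 and 28.8 ± 2.64 TPM in clone 2 against 13.7 ± 0.470 TPM in parental cells. The highest limma adjusted p of these calls was 1.3e-05. Of 14 proteases and inhibitors 6 had a settled symbol, with 3 higher and 3 lower in OCI-AML3 and 1 higher and 2 lower in OCI-AML2. The gelatinase gene MMP9 was higher in both lines. In OCI-AML3 it averaged 16.6 TPM in clone 1 and 22.7 TPM in clone 2 against 4.79 TPM in parental cells, 3.47-fold and 4.74-fold. In OCI-AML2 it averaged 3.42 TPM in clone 1 and 2.31 TPM in clone 2 against 0.063 TPM in parental cells, 54-fold and 36.5-fold. The near-equal mean log2(TPM + 1) changes of 1.83 for OCI-AML3 and 1.84 for OCI-AML2 rest on the pseudocount of 1 TPM, since with 0.1 TPM they were 1.79 and 2.24 in the OCI-AML3 clones and 4.44 and 3.88 in the OCI-AML2 clones. In OCI-AML3 the granule protease gene CTSG (-2.48) fell with PRTN3, and SERPINA1, an inhibitor of such proteases, rose (2.37; highest limma adjusted p 3.2e-10 with MMP9). In OCI-AML2, SERPINA1 (-0.54) and DPP4 (-1.11), which trims the ends of several chemokines, fell (highest limma adjusted p 0.00374). A minimum of 5 TPM removes low genes. With it the counts in OCI-AML3 fell to 3 higher and 1 lower chemokine genes and 1 higher gene of the gamma chain list. In OCI-AML2 they fell to 0 higher and 0 lower chemokine genes and 1 higher gene of the gamma chain list. They also fell there to 4 higher genes of other cytokines and 1 lower protease gene. With symbols settled by repeats or replicate order only, 1 gene of the gamma chain list and 1 protease gene were lower in OCI-AML2.

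**Figure D4:**
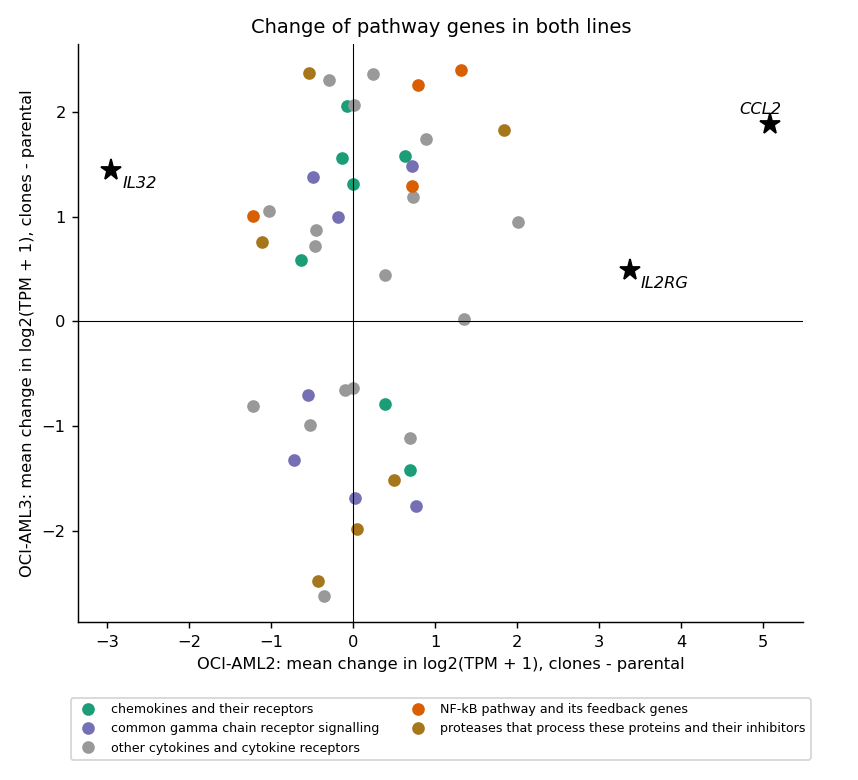
Mean change in log2(TPM + 1) over the clones of OCI-AML2 (horizontal) and OCI-AML3 (vertical), each minus its parental cells, for tested genes of the 5 pathway lists (circles) and for CCL2, IL32 and IL2RG (stars). The 3 stars were chosen for their horizontal values, so their distance from 0 on that axis is no finding; on the vertical axis they lie at 1.88, 1.44 and 0.49.

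Because IL32 and IL2RG are also expressed by lymphocytes, markers of T and NK cells were read beside them. Of 12 such markers 2 had a settled symbol, NKG7 and CD3D. Their summed level was 119.7 to 139.5 TPM in OCI-AML2 clone 1 and 152 to 195.1 TPM in clone 2 against 66.69 to 70.42 TPM in parental cells, where IL2RG was higher and IL32 lower in the clones. It was 2.71 to 3.94 TPM in OCI-AML3 clone 1 and 2.88 to 6.29 TPM in clone 2 against 12.64 to 20.01 TPM in parental cells. CD3D, a T cell receptor subunit, was listed at 0 in all OCI-AML3 libraries and in the OCI-AML2 parental libraries. In the OCI-AML2 clones it was at 0.98 to 1.74 TPM, so the sums are almost wholly NKG7 and say little of lymphocyte markers as a set. Of 5 B cell markers 1, PAX5, had a settled symbol, at most 4.2 TPM in OCI-AML2 and 0.52 TPM in OCI-AML3. Of 6 stromal and endothelial markers 1, COL1A2, had one, at 2.85 to 3.91 TPM in OCI-AML3 clone 1, 1.83 to 2.17 TPM in clone 2 and 0.06 to 0.25 TPM in parental cells, and at most 0.02 TPM in OCI-AML2. The 4 erythroid markers had none. The part of such cells in the results was not tested.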

How the data were processed

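Transcripts were measured by RNA sequencing in 18 libraries, grouped by the sample titles. The authors deposited TPM for each library, as the file headers name the unit. The aligner, counter, genome build and annotation: not given in the sources used here. Of the value columns, 0 matched no sample. The 3 genes and all gene lists were chosen with earlier results of these data known.

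The table has 6999 lines with 4816 symbols, and some value sets stand under several symbols with the 3 values of OCI-AML3 clone 1 rotated. Sets were counted once (5069). A symbol was accepted where all of at least 2 lines agreed (413 sets), where the replicate order picked it (1234), or for a single line with a parental log2 ratio under 0.6 (673; 0.01 TPM added to each mean). That addend was set after seeing the data, because adding 1 TPM instead settled more lines but gave some symbols to several sets; dropping single-line symbols is among the alternatives. CCL2 also stood under ENC1 and IL2RG under HEMK1, in rotated order; these twins were dropped. Another line printed as IL2RG, averaging 394 TPM in OCI-AML3 clone 1, 460 TPM in clone 2 and 383 TPM in parental cells, had no settled symbol and was not used.

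A set was tested if 3 or more libraries reached 1 TPM (4413 sets); log2(TPM + 1) values were fitted with limma 3.58.1 (R 4.3.3), with a mean per group and an intensity trend. P-values are two-sided and Benjamini-Hochberg adjusted over all tested sets within each comparison (threshold 0.05). The fit was tested on simulated data. Named are the 3 genes, CASP2, direct partners, the up to 4 largest calls per list and line, and the 3 most correlated genes per member. Same-numbered replicates were not paired (correlations of their deviations -0.343 to 0.177). Upstream windows came from RefSeq.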

Additional observations from a re-analysis of the deposited data

Results flagged for a closer look

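IL32 moved in opposite directions in the lines. All 6 clone libraries of OCI-AML3 were above their parental mean (ratios of mean TPM 7.66 in clone 1 and 8.31 in clone 2), and all 6 clone libraries of OCI-AML2 were below theirs (0.165 and 0.0672). This difference was not tested, because the OCI-AML2 change chose the gene.

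The mean clone change was compared between the lines for the named partner and pathway genes by the limma interaction (adjusted over 4413 sets), given as OCI-AML3 minus OCI-AML2 on the log2(TPM + 1) scale. Of all tested sets 81.7% passed this test, and of those with a settled symbol 93.3%. Of the 23 named genes that reached 1 TPM in at least 3 libraries of each line, 22 passed (highest adjusted p 0.00285, for IL1B), a share near that background in genes picked for large changes. MMP9 did not pass (-0.01, adjusted p = 0.936), a value that rests on the pseudocount. OSMR (at most 0.07 TPM in OCI-AML2), IL1R1 and ACKR3 (at most 0.45 and 0.86 TPM in OCI-AML3) and CCL3L1 were too low in one line for a comparison.

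The chemokine genes were at 0.94 (CCL5), 2.13 (CCR2) and 1.70 (CXCR4). Genes of the common gamma chain list were at -2.52 (SOCS2), -1.72 (JAK3), 0.76 (PIM1), 1.87 (IL13RA1) and -0.60 (OSM). Other cytokine genes were at -2.27 (CSF2RB), 2.12 (TGFA), 2.60 (IL17RC), -1.06 (LTB), 0.41 (IL1B) and 2.08 (TNFSF13B). NF-kB pathway genes were at 1.09 (PTGS2), 1.47 (TNFAIP3), 0.58 (TLR4) and 2.23 (TLR2), and proteases and inhibitors at -2.06 (CTSG), 2.91 (SERPINA1), -2.04 (PRTN3) and 1.87 (DPP4).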

How the results depend on the processing

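The tested changes of CCL2 and IL32 kept their call and direction in all 26 alternatives for OCI-AML3 clones against parental cells and for OCI-AML2 clone 2 against clone 1. With a pseudocount of 0.1 TPM the OCI-AML3 differences of low genes were larger in clone 1 and clone 2, at 2.69 and 2.83 for IL32 and 0.67 and 1.25 for IL2RG (adjusted p = 0.121 and 0.00685). Changes of CCR2, JAK3, TGFA, PTGS2, TLR4, CCL3L1 and ACKR3 in OCI-AML3 and of MMP9, DPP4, SERPINA1, OSM, IL1R1 and CCL3L1 in OCI-AML2 also grew by over 1.5 times in both clones. For IL2RG in OCI-AML3, leaving out single libraries gave 0.033 to 0.57 in clone 1 and 0.44 to 0.74 in clone 2 against parental cells. Between the OCI-AML2 clones, leaving out single libraries gave -0.67 to -0.41, and the difference of -0.50 passed with a minimum of 5 TPM (adjusted p = 0.0482), with the replicate block (adjusted p = 0.0465) and with only the libraries of that line in the fit (adjusted p = 0.00338). The sets called between the OCI-AML3 clones, 174 higher and 127 lower, fell to 92 and 74 with a pseudocount of 0.1 TPM. Leaving out single libraries gave 37 to 217 higher and 65 to 169 lower, with 66 and 77 without clone 1 replicate 1, 37 and 65 without clone 2 replicate 2, and 92, 85 and 79 higher without clone 1 replicate 2, clone 1 replicate 3 and clone 2 replicate 1. After rescaling by medians of ratios 268 were higher. With every line of the table kept, 2374 rows were higher in OCI-AML2 clone 1 than in parental cells, against 1547 sets, because repeats count again. The replicate block changed no other call of the 3 genes. List counts were not run with single-line fits or with every line kept. The cause of the other shifts was not tested. With TPM only, counting error cannot be given.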
